A study of Mus musculus with 6 samples.

Results

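Circadian clock genes were examined in hematopoietic stem and progenitor cells after Cre was induced in *Myh9* fl/fl mice. The set held 10 genes of the core clock loops, *Per1*, *Per2*, *Per3*, *Cry1*, *Cry2*, *Nr1d1*, *Nr1d2*, *Dbp*, *Tef* and *Clock*, out of 54532 genes in the expression table, and it was chosen on the values of the comparison described here. The values of these 10 genes, and the number of them that a fit over all genes called, are therefore a description and no test of the set or of a gene in it.

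RNA-seq was performed on LSK cells (Lin-Sca1+c-kit+), the bone marrow fraction that holds hematopoietic stem cells and multipotent progenitors. Control LSKs (CTRL, n = 3) came from *Myh9* fl/fl mice with no Cre, and the LSKs called *Myh9*-deficient in the study (cKO, n = 3) from littermates of the genotype *Myh9* fl/fl;*Mx1-cre*, all on the C57BL/6 strain and genotyped at 4 to 5 weeks of age. Both groups carried the floxed alleles and received poly I:C, a double-stranded RNA mimic that switches on the interferon-responsive *Mx1* promoter, at 5 mg/kg every other day, with 2 doses given in the sample descriptions. LSKs were sorted on day 4 after the first injection, with 100000 cells for each library. The *Mx1* promoter also drives Cre outside blood cells, controls carried no Cre, and the number of mice behind each library and the time of day of collection are not given in the sources used here.

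The mammalian clock is a set of transcriptional feedback loops. CLOCK and BMAL1 (encoded by *Arntl*) bind E-boxes and switch on the *Per*, *Cry* and *Nr1d* genes and the PAR bZIP genes *Dbp* and *Tef*, and PER and CRY proteins then return to the nucleus and repress CLOCK-BMAL1. In a second loop, NR1D1 and NR1D2 (REV-ERBs) repress and ROR proteins activate *Arntl* through RORE elements, while DBP, TEF and HLF activate and NFIL3 represses genes that carry D-boxes. In bone marrow, the release of stem and progenitor cells into blood follows a daily rhythm that is set in part by sympathetic nerves.

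Promoter sequences were looked up because these loops act through short DNA elements. The 250 bases upstream of the transcription start in RefSeq (GRCm38.p6) were found for 9 of the 10 genes, with 13 starts among them, and *Per2* had no entry. Exact matches were searched on both strands for the E-box CACGTG, the D-box forms TTACGTAA and TTATGTAA, the RORE cores TAGGTCA and TGGGTCA and the cAMP response element TGACGTCA. The 4 windows shown are those with a match that lie almost wholly outside annotated exons, written 5′ to 3′ on the strand of the gene with the matched element in capitals.
*Per1*, first start, chr11:69098699-69098948, plus strand, E-box in capitals: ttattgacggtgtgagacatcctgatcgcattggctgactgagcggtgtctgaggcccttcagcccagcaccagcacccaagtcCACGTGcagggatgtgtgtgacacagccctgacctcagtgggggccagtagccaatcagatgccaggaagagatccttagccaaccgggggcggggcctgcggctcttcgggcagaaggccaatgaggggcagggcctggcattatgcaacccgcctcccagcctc
*Cry1*, chr10:85185055-85185304, minus strand, E-box in capitals: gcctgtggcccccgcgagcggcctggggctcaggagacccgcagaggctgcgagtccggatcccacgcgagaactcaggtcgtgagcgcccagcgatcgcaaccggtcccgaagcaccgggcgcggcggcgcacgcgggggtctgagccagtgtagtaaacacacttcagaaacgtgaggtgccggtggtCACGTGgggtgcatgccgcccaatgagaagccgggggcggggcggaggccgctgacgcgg
*Tef*, second start, chr15:81811164-81811413, plus strand, E-box in capitals: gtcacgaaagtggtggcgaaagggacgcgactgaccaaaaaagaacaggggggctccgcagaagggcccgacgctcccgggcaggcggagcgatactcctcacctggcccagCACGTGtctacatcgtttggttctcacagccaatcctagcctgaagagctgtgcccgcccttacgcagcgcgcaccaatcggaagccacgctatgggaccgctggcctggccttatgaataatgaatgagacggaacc
*Per3*, chr4:151044666-151044915, minus strand, D-boxes in capitals: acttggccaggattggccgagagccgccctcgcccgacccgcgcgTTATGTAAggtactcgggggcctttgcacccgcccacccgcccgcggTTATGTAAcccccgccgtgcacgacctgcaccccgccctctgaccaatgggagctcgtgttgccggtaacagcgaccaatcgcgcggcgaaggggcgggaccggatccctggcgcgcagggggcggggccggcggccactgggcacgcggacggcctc

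The E-box lay 166 to 161 bases before the first start of *Per1*, 60 to 55 bases before that of *Cry1* and 138 to 133 bases before the second start of *Tef*. The first start of *Tef* also had an E-box, 127 to 122 bases upstream, in a window that GENCODE M21 places in an exon of *Tef*. *Per3* had the D-box form TTATGTAA at 205 to 198 and at 158 to 151 bases upstream. The E-box was thus present in 4 of the 13 windows and the second D-box form in 1, against 6.02% and 0.819% of all 32851 promoters of the same length. No match to the other 4 elements was found in the 13 windows, and these occurred in 0.113% (TTACGTAA), 2.23% (TAGGTCA), 3.24% (TGGGTCA) and 1.55% (TGACGTCA) of all promoters. Of the 3 genes with an E-box, *Per1* was higher in cKO libraries, *Cry1* was lower and *Tef* overlapped between the groups, as described below.

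Each library held 17571544 to 19894562 reads on genes. Correlations of log2(FPKM + 1) across genes between pairs of libraries were 0.991 to 0.993 within a group and 0.974 to 0.977 between groups. *Myh9*, the targeted gene, was at 23.0, 22.6 and 22.0 FPKM (fragments per unit of gene length and of library size) in control and at 18.4, 20.0 and 17.7 FPKM in cKO libraries. It was lower in 3 of 3 cKO libraries, by 0.26 ± 0.049 (SE) on the log2(FPKM + 1) scale (limma, Benjamini-Hochberg adjusted p = 0.00642), and by 0.12 with an adjusted p of 0.0513 in a fit free of GC content and length trends. The gene-level value sums all exons, so the deleted exon was not seen separately.

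The defining LSK markers were present in all libraries, with a summed level of 219 to 222 FPKM in control and 227 to 237 FPKM in cKO LSKs and none of 8 below 1 FPKM. Of 8 markers that the sort depletes, 6 were below 1 FPKM on average over the 6 libraries, among them *Cd3e*, *Cd4*, *Cd8a*, *Itgam* and *Ly6g*. Summed levels of other cell type markers moved with the genotype. They went from 495 to 499 to 868 to 893 FPKM for erythroid genes (9 of 9 called higher), from 56.7 to 60.4 to 125 to 130 FPKM for megakaryocyte genes (3 of 3 tested higher, *Gp1bb* at 0), and from 125 to 137 to 187 to 197 FPKM for mast cell and basophil genes (5 of 6 higher). Neutrophil and monocyte genes went from 10624 to 10694 to 5968 to 6090 FPKM (7 of 8 lower), B and plasma cell genes from 66.0 to 70.9 to 103 to 108 FPKM (3 of 5 tested higher), and T and NK cell genes from 362 to 373 to 323 to 326 FPKM (3 higher and 1 lower of 4 tested, *Cd3e* and *Cd3g* below 1 FPKM). The last sum was mostly *Nkg7*, at 353 FPKM in control and 280 FPKM in cKO LSKs, and the other 5 genes of that list were higher in cKO without overlap, such as *Trbc2* (1.22 and 6.13 FPKM) and *Ccl5* (10.1 and 35.5 FPKM). The part of these shifts in the clock gene differences was not tested, and in bulk RNA fewer cells of a type and less RNA per cell cannot be told apart.

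Among the clock genes, *Per1* had higher values in all 3 cKO libraries than in any control library, and *Cry1*, *Cry2*, *Dbp* and *Clock* had lower values in all 3. *Nr1d1* lay slightly higher in cKO, and *Per2*, *Per3*, *Nr1d2* and *Tef* overlapped. Of the 10 genes, 9 averaged 1 FPKM or more across all libraries and were part of the test over 11552 genes, while *Clock* was below that level. Of these 9, 1 was called higher and 2 lower at an adjusted p under 0.05, where 19.9% of all genes tested were called higher, 20.6% lower and 40.5% in either direction. The control and cKO libraries did not overlap for 5 of the 9 (*Per1*, *Cry1*, *Cry2*, *Nr1d1* and *Dbp*) and for *Clock*, against 54.0% of all genes tested. The set was chosen on this contrast, so nothing is read from these counts. The number called lower was 1 without control replicate 1 or control replicate 2 and 0 without cKO replicate 1. The median log2 change was 0.042 over the 9 clock genes and -0.0096 over all genes tested.

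**Figure D1:**
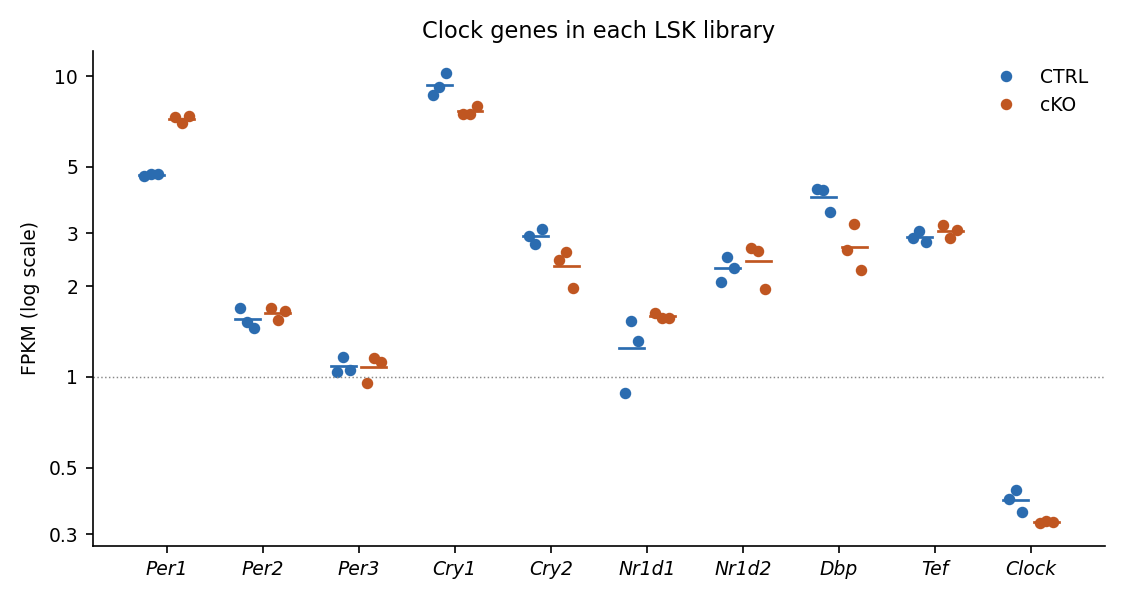
Level of each clock gene in each LSK library, in FPKM on a log scale, with blue points for the 3 control and orange points for the 3 cKO libraries, a short line at the group mean and a dotted line at 1 FPKM. *Per1* in cKO (6.97 to 7.35 FPKM) lies above control (4.65 to 4.72 FPKM), *Dbp* and *Cry1* in cKO lie below control, and *Clock* is under 1 FPKM in all 6 libraries.

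The *Per* genes encode the repressors whose accumulation times the loop. *Per1* (ENSMUSG00000020893, chr11:69095217-69109960, plus strand) was at 4.65, 4.72 and 4.72 FPKM in control and at 7.29, 6.97 and 7.35 FPKM in cKO LSKs. All cKO libraries lay above all control libraries, and the differences between libraries of 1 group were small beside the gap. The mean went from 4.70 ± 0.0374 to 7.20 ± 0.202 FPKM (SD, n = 3), a difference of 53.4%, or 0.53 ± 0.041 (SE) on the log2(FPKM + 1) scale. The size of this change was above that of 92.2% of the genes tested. It rested on 468 to 770 reads per library. Over the alternative analyses its log2 change was 0.51 to 0.64.

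*Per2* (ENSMUSG00000055866, chr1:91415982-91459324, minus strand), which encodes the PER protein most closely tied to rhythm maintenance in mice, was at 1.70, 1.52 and 1.45 FPKM in control and at 1.70, 1.55 and 1.65 FPKM in cKO LSKs. The groups overlapped, and the log2 change was 0.042 ± 0.071. *Per3* (ENSMUSG00000028957, chr4:151003652-151044665, minus strand), a *Per* gene that is not needed for the core rhythm, was at 1.04, 1.16 and 1.06 FPKM in control and at 0.956, 1.16 and 1.12 FPKM in cKO LSKs. Its libraries overlapped too, the log2 change was -0.0064 ± 0.080, and its sign changed in 4 of 16 alternative analyses. *Camta1*, whose span overlaps *Per3* on the same strand without shared exonic bases, was at 1.55 FPKM in control and 2.04 FPKM in cKO LSKs (log2 change 0.25, adjusted p = 0.0252 in limma, higher in 3 of 3 cKO libraries). The 3 *Per* genes thus differed in how far they moved, and *Per1* made up 64.0% ± 1.19 of their summed FPKM in control and 72.7% ± 0.638 in cKO LSKs (SD, n = 3).

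The *Cry* genes encode the cryptochromes, the stronger repressors of CLOCK-BMAL1. *Cry1* (ENSMUSG00000020038, chr10:85131700-85185064, minus strand) was at 8.63, 9.17 and 10.2 FPKM in control and at 7.48, 7.45 and 7.95 FPKM in cKO LSKs. The cKO libraries all lay below the control libraries, and control replicate 3 was the highest of the 6. The mean went from 9.34 ± 0.808 to 7.63 ± 0.277 FPKM, a difference of -18.3%, or -0.26 ± 0.064 on the log2(FPKM + 1) scale. Over the alternatives the log2 change was -0.31 to -0.20.

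*Cry2* (ENSMUSG00000068742, chr2:92403646-92434043, minus strand) was at 2.95, 2.76 and 3.09 FPKM in control and at 2.44, 2.59 and 1.97 FPKM in cKO LSKs. The groups did not overlap, but the cKO libraries were spread widely, with replicate 3 the lowest. The difference of -20.4% (log2 change -0.24 ± 0.086) was close in size to that of *Cry1*. Over the alternatives its log2 change was -0.32 to -0.14. It was -0.30 without cKO replicate 2 and -0.16 without cKO replicate 3. With voom on the recovered reads it was -0.32, and with GC content and length trends removed -0.14. Of its exonic bases, 295 (4.67%) are shared with *D930015M05Rik* on the opposite strand, which was at 0.136 FPKM in both groups.

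The ratio of summed *Per* to summed *Cry* FPKM differed between the groups. Of the *Per* genes, only *Per1* had groups that did not overlap. Summed *Per* FPKM was 7.39, 7.40 and 7.23 in control and 9.94, 9.68 and 10.1 in cKO LSKs, while summed *Cry* FPKM was 11.6, 11.9 and 13.3 in control and 9.92, 10.05 and 9.92 in cKO LSKs. The ratio of the sums was 0.600 ± 0.0506 in control and 0.995 ± 0.0291 in cKO LSKs (SD, n = 3), and its libraries did not overlap. The ratio of *Per1* to *Cry1* went from 0.505 ± 0.0395 to 0.945 ± 0.0263. The ratio of *Cry1* to *Cry2* was 3.19 ± 0.228 in control and 3.32 ± 0.620 in cKO LSKs, with overlapping libraries. These ratios restate the gene values above and were not tested.

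**Figure D2:**
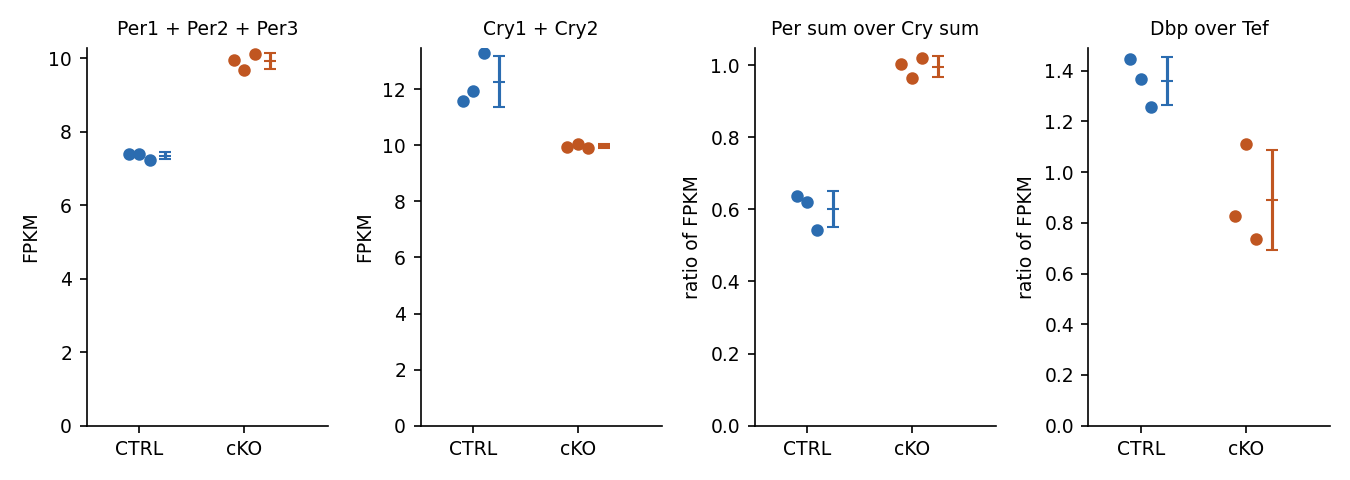
Sums and ratios of clock gene FPKM in each library (points) with the mean and SD of each group beside them (n = 3), for the summed *Per* genes, the summed *Cry* genes, the *Per* sum over the *Cry* sum, and *Dbp* over *Tef*. The *Per* over *Cry* ratio is 0.543 to 0.638 in control and 0.963 to 1.02 in cKO libraries, and *Dbp* over *Tef* is 1.26 to 1.45 in control and 0.734 to 1.11 in cKO libraries.

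The *Nr1d* genes encode REV-ERB-alpha and REV-ERB-beta, heme-binding nuclear receptors that repress *Arntl*. *Nr1d1* (ENSMUSG00000020889, chr11:98767932-98775333, minus strand) was at 0.883, 1.53 and 1.32 FPKM in control and at 1.63, 1.57 and 1.57 FPKM in cKO LSKs. The lowest cKO library lay just above the highest control library, and control replicate 1, with 54 reads, was well below the other control libraries (83 and 78 reads). The mean went from 1.24 ± 0.331 to 1.59 ± 0.0352 FPKM, with a log2 change of 0.22 ± 0.12 that ranged from 0.096 to 0.42 over the alternatives. Of the exonic bases of *Nr1d1*, 263 (8.55%) are shared with *Thra*, a thyroid hormone receptor gene on the opposite strand. *Thra* was at 14.0 FPKM in control and 11.6 FPKM in cKO LSKs (log2 change -0.24, adjusted p = 0.00628 in limma, lower in 3 of 3 cKO libraries). The library kit does not mark strand, so reads from the shared bases cannot be told apart.

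*Nr1d2* (ENSMUSG00000021775, chr14:18204054-18239127, minus strand) was at 2.07, 2.51 and 2.30 FPKM in control and at 2.68, 2.63 and 1.96 FPKM in cKO LSKs. Replicates 1 and 2 of cKO were the highest of the 6 libraries and replicate 3 the lowest, so the groups overlapped. The log2 change was 0.050 ± 0.10 and changed sign without cKO replicate 1 (-0.0065). The summed *Nr1d* FPKM was 3.54 ± 0.546 in control and 4.01 ± 0.424 in cKO LSKs, with overlap.

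*Dbp* and *Tef* encode PAR bZIP activators that carry clock output to genes with D-boxes. *Dbp* (ENSMUSG00000059824, chr7:45705088-45710203, plus strand) was at 4.20, 4.19 and 3.53 FPKM in control and at 2.64, 3.23 and 2.26 FPKM in cKO LSKs. The groups did not overlap, although the highest cKO library (3.23 FPKM) came near the lowest control library (3.53 FPKM). The mean went from 3.97 ± 0.382 to 2.71 ± 0.485 FPKM, a difference of -31.8%, or -0.43 ± 0.11 on the log2(FPKM + 1) scale, which was above that of 88.9% of the genes tested in size. Over the alternatives the log2 change was -0.55 to -0.34.

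*Dbp* shares 539 exonic bases (18.0%) with *Sphk2*, a sphingosine kinase gene on the opposite strand. *Sphk2* was at 11.1 FPKM in control and 7.85 FPKM in cKO LSKs (log2 change -0.44, adjusted p = 5.8e-04 in limma, lower in 3 of 3 cKO libraries). Reads in the shared stretch cannot be assigned to 1 of these genes from an unstranded library, and *Dbp* had only 126 to 250 reads per library.

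*Tef* (ENSMUSG00000022389, chr15:81802421-81826863, plus strand) was at 2.90, 3.07 and 2.81 FPKM in control and at 3.19, 2.90 and 3.08 FPKM in cKO LSKs. The groups overlapped, and the log2 change was 0.048 ± 0.057. It shares 193 exonic bases (2.45%) with the antisense gene *Gm17597*, which was at 0.139 FPKM in control and 0.0645 FPKM in cKO LSKs. *Dbp* and *Tef* thus stood in a different ratio in the groups, 1.36 ± 0.0948 in control and 0.891 ± 0.197 in cKO LSKs (SD, n = 3), and the libraries did not overlap.

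*Clock* (ENSMUSG00000029238, chr5:76209868-76304792, minus strand), the activator of the loop, was the lowest of the 10 genes, at 0.392, 0.422 and 0.357 FPKM in control and at 0.327, 0.332 and 0.329 FPKM in cKO LSKs. These values stood on 94 to 107 reads in control and 83 to 84 reads in cKO libraries. The cKO libraries lay just below the control libraries, with a difference of -15.7% between the means (0.390 ± 0.0325 and 0.329 ± 0.00245 FPKM) and a log2 change of -0.065 ± 0.040 when no filter on low values was applied. The spread of the cKO libraries, 0.745% of the mean, was below the 10.9% that counting alone would give, so the SD of this group understates its error. The span of *Clock* also holds the pseudogene *Ube2n-ps1* (6.62 FPKM in control and 6.94 FPKM in cKO LSKs, adjusted p = 0.728 in limma) and *Gm43658* (0.0042 and 0.0044 FPKM), with no exonic bases shared.

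The spread between libraries was set beside the spread that read counting alone would give. The control libraries of *Per1* varied by 0.797% where counting gives 4.47%, so their SD understates the error as well. At the other end, *Nr1d1* varied by 26.6% among control libraries against 11.8% from counting, and *Dbp* by 17.9% among cKO libraries against 8.16%. Reads carry no molecular identifiers, so these counting values cover counting error only. *Dbp* and *Per1* also stood out in base composition, with GC contents of 61.6% and 59.4%, above those of 98.1% and 94.7% of the genes tested. With GC content and length trends removed, their log2 changes were -0.40 and 0.62.

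In levels per length, *Cry1* was the most abundant of the 10 genes in both groups, followed by *Per1*. In control LSKs, *Dbp* came next, then *Cry2* and *Tef*, *Nr1d2*, and then *Per2*, *Nr1d1* and *Per3*, with *Clock* last. *Cry2* and *Tef*, *Per2* and *Nr1d1*, and *Nr1d1* and *Per3* were neighbours whose library ranges overlapped. In cKO LSKs, *Tef*, *Dbp*, *Nr1d2* and *Cry2* formed a run of overlapping neighbours behind *Per1*, and *Per2* and *Nr1d1* overlapped as well. *Cry1* and *Per1* were at 9.34 and 4.70 FPKM in control and at 7.63 and 7.20 FPKM in cKO LSKs, so they lay closer together in the latter. The 9 tested genes were of low to middle abundance, with a mean over the 6 libraries above that of 1.50% (*Per3*) to 53.1% (*Cry1*) of all genes tested. The summed FPKM of the 10 genes was 30.4 ± 0.890 in control and 30.0 ± 0.647 in cKO LSKs, with overlapping libraries.

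The other genes of the clock pathway were examined in 7 lists with 61 genes, of which 51 were tested. In all, 8 were called higher and 19 lower in cKO LSKs (27 of 51, 52.9%, against 40.5% of all genes tested), with a median log2 change of -0.085. Adjusted p in the following paragraphs come from limma over all genes tested, with Benjamini-Hochberg adjustment, and every gene named with a call had libraries that did not overlap between the groups. The lists were put together with earlier results of these data known, and nothing particular to a list is read from its count.

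**Figure D3:**
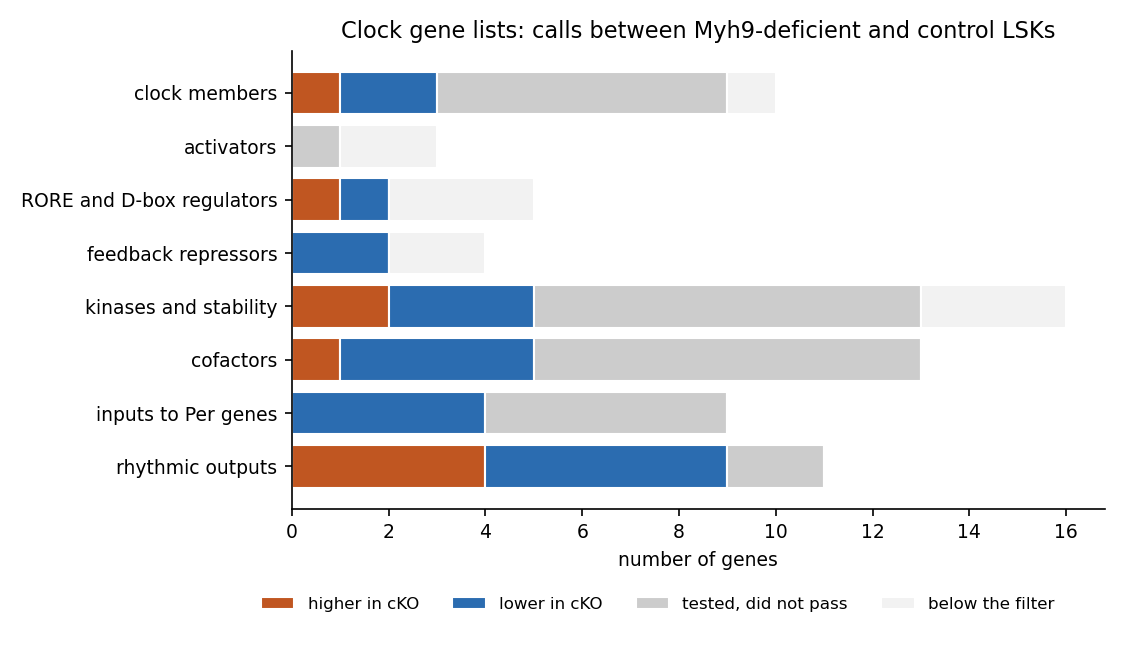
Number of genes called higher (orange) or lower (blue) in cKO, tested without a call (grey) and below 1 FPKM (pale grey) in the 10 clock genes and in the 7 other clock lists. The rhythmic output list has 4 genes called higher and 5 lower of 11, and the inputs to *Per* transcription have 4 called lower of 9 and none higher.

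Of the partners of CLOCK, *Arntl*, which encodes BMAL1, was at 1.48, 1.65 and 1.60 FPKM in control and at 1.87, 1.76 and 1.73 FPKM in cKO LSKs. All cKO libraries lay above the control libraries, but the change did not pass the test (log2 change 0.11, 95% interval -0.044 to 0.27, adjusted p = 0.216). *Arntl2*, its paralog, was at 0 to 0.132 FPKM and *Npas2*, the paralog of *Clock*, at 0 to 0.0761 FPKM over the 6 libraries. *Arntl* was thus the only gene of this list above 1 FPKM, at a level near that of *Per2*.

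The regulators of RORE and D-box elements included the largest change among the named loop genes. *Nfil3*, the repressor that competes with DBP and TEF at D-boxes, was at 8.12, 8.91 and 8.77 FPKM in control and at 4.98, 4.98 and 4.75 FPKM in cKO LSKs. It fell by 0.70 on the log2(FPKM + 1) scale (SE 0.049, adjusted p = 1.1e-04) and was lower in all 3 cKO libraries. *Hlf*, the third PAR bZIP activator and a gene also known as a stem cell regulator, was at 4.03, 3.27 and 3.88 FPKM in control and at 5.64, 5.14 and 4.71 FPKM in cKO LSKs. It rose by 0.38 ± 0.085 (adjusted p = 0.0125, and 0.0507 without moderation). The log2 changes of the 3 PAR bZIP genes were thus 0.38 for *Hlf*, -0.43 for *Dbp* and 0.048 for *Tef*. *Rora* was below the 1 FPKM needed for the test, at 0.211 FPKM in control and 0.169 FPKM in cKO LSKs on 33 to 56 reads per library, and *Rorb* had 0 reads in all 6 libraries.

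**Figure D4:**
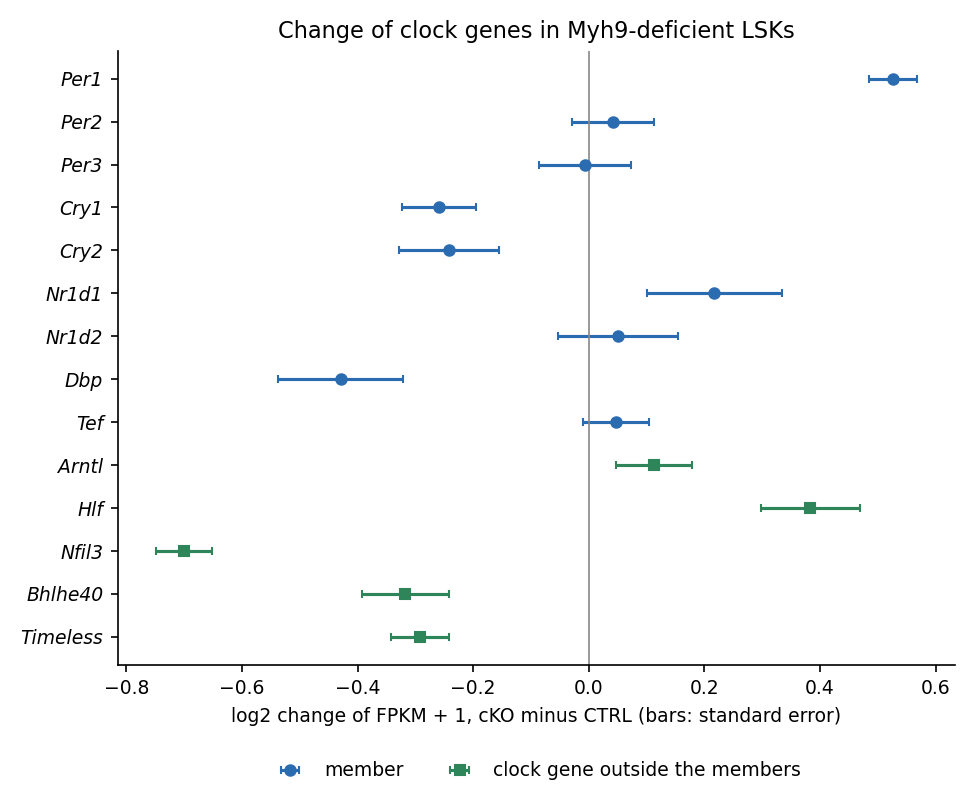
Change of the 9 tested clock genes of the set (circles) and of 5 genes of the other clock lists (squares), as the difference of log2(FPKM + 1) in cKO minus control with its standard error. *Per1* (0.53) and *Hlf* (0.38) lie to the right, and *Nfil3* (-0.70), *Dbp* (-0.43), *Bhlhe40* (-0.32), *Timeless* (-0.29), *Cry1* (-0.26) and *Cry2* (-0.24) to the left.

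In the list of further feedback repressors, both tested genes fell. *Bhlhe40* (DEC1, an E-box repressor) went from 1.50 ± 0.0757 to 1.01 ± 0.0906 FPKM (log2 change -0.32, adjusted p = 0.0159), and its adjusted p was 0.0524 without control replicate 2 and 0.0504 without control replicate 3. *Timeless*, which in mammals acts mainly at replication forks, went from 16.5 ± 0.494 to 13.3 ± 0.819 FPKM (log2 change -0.29, adjusted p = 0.00445). *Ciart* (CHRONO) was at 0.859 FPKM in control and 0.954 FPKM in cKO LSKs and *Bhlhe41* at 0.0077 and 0.032 FPKM, and neither was tested.

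Kinases and ubiquitin ligases set the lifetime of PER and CRY proteins. Of 16 such genes, 13 were tested, and 2 were called higher and 3 lower. *Csnk2b*, the regulatory subunit of casein kinase 2, rose from 66.6 to 80.6 FPKM (log2 change 0.27, adjusted p = 0.00145). *Prkaa1*, a catalytic subunit of AMPK that marks CRY for degradation, rose from 7.43 to 8.92 FPKM (log2 change 0.23, adjusted p = 0.0187, and 0.0576 without control replicate 3). With no moderation of the variance its adjusted p was 0.0545. *Csnk1a1*, a casein kinase 1 gene, fell by 0.15 (adjusted p = 0.00515, and 0.130 with GC content and length trends removed). *Fbxw11*, a ligase subunit that recognizes phosphorylated PER, fell by 0.24 (adjusted p = 0.0248), and its adjusted p was 0.0640 to 0.0767 when control replicate 1 or 3 or cKO replicate 1 or 3 was left out. It was 0.0607 with no filter on low values and 0.0820 with no moderation of the variance. *Gsk3b* fell by 0.21 (adjusted p = 0.0429, and 0.0913 to 0.131 without any library other than control replicate 2). The adjusted p of *Gsk3b* was also 0.105 with no filter on low values and 0.0628 with no moderation of the variance. With GC content and length trends removed it was 0.196.

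Cofactors of the loop at chromatin and RNA were all tested, and 1 of 13 was called higher and 4 lower. *Hdac3*, the deacetylase that works with REV-ERBs, rose from 23.9 to 27.2 FPKM (log2 change 0.18, adjusted p = 0.00969). *Ncor1*, the corepressor that links HDAC3 to REV-ERBs, fell from 10.3 to 8.45 FPKM (-0.25, adjusted p = 0.00298), so the pair moved in opposite directions. *Kmt2a*, an H3K4 methyltransferase, fell by 0.22 (adjusted p = 0.0244), with 0.0507 to 0.0785 when control replicate 1, 2 or 3 or cKO replicate 2 or 3 was left out and 0.268 with GC content and length trends removed. With no filter on low values its adjusted p was 0.0682. *Ddx5*, an RNA helicase, fell by 0.15 (adjusted p = 0.00390).

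Signals that reach the *Per* promoters from outside the loop came next. All 9 genes of this list were tested, with 0 called higher and 4 lower. *Sik1*, a kinase that restrains CREB coactivators, was at 8.06, 8.30 and 8.004 FPKM in control and at 4.13, 4.39 and 3.75 FPKM in cKO LSKs (log2 change -0.84, adjusted p = 9.5e-05). *Nr3c1*, the glucocorticoid receptor, went from 6.44 to 5.45 FPKM (-0.21, adjusted p = 0.0154), with 0.0541 without control replicate 2 and 0.0700 with GC content and length trends removed.

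Genes with a daily rhythm in many tissues were all tested, and 4 of 11 were called higher and 5 lower. *Rbm3*, a cold-inducible RNA-binding protein, rose the most, from 108 ± 3.04 to 195 ± 2.43 FPKM (log2 change 0.85, adjusted p = 6.1e-06). *Tsc22d3* (GILZ), a glucocorticoid-induced gene, rose from 12.5 ± 0.888 to 20.0 ± 0.654 FPKM (0.64, adjusted p = 2.7e-04), and *Tspan4*, a tetraspanin, from 41.1 to 49.3 FPKM (0.25, adjusted p = 0.00217). *Cdkn1a*, the cell cycle inhibitor p21, fell from 13.1 ± 1.33 to 8.64 ± 0.690 FPKM (-0.55, adjusted p = 0.00265). *Klf9*, a Kruppel-like transcription factor, fell from 5.25 ± 0.163 to 3.72 ± 0.559 FPKM (-0.41, adjusted p = 0.0103), and *Pfkfb3*, an activator of glycolysis, from 8.06 to 6.38 FPKM (-0.30, adjusted p = 0.00328). Outputs shared by many tissues thus moved in both directions, as the genes of the loop itself did.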

How the data were processed

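The authors deposited 1 table of FPKM values with gene lengths for 6 LSK libraries (3 CTRL, 3 cKO). HISAT2 2.0.5 and mm10 are named in the submitters' processing notes, and the counting program is not given in the sources used here. FPKM times length was a whole multiple of 1 step per library for 100% of values (tolerance 0.05 reads). The step, found from the smallest positive value, was taken as 1 read, which gave the reads behind each value. A median-of-ratios scaling left the deposited values as they were (all factors 1).

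Genes averaging 1 FPKM or more were tested with limma 3.58.1 (R 4.3.3; lmFit and eBayes with a trend) on log2(FPKM + 1), two-sided, with Benjamini-Hochberg adjustment and a threshold of 0.05. Fold changes of low genes are understated on this scale. The procedure was tested on simulated data. With 3 against 3 libraries, an exact permutation test cannot go below p = 0.1. The 3 LSK sets per group are described as independent, and if they shared animals the p-values would measure technical spread.

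The clock genes and lists were chosen with earlier results of these data known. Genes named are the 10 clock genes, genes overlapping them, all genes of the 3 core lists, and up to 3 called per direction in the other lists, except that some genes of these lists are not reported here. The poly I:C doses number 2 in the labels and differ in the methods. Coordinates are those of the table, which match GENCODE M21 for all 10 genes. Deviations from group means showed no clear correlation between libraries of the same replicate number (-0.0046, -0.011 and -0.026). Such values cannot show whether these libraries shared animals or days. Alternatives were another pseudocount (0.1), filter (none or 5 FPKM), scaling, moderation, a replicate block, voom on recovered reads and leaving out each library. Removal of GC content and length trends was chosen after seeing the data.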

Additional observations from a re-analysis of the deposited data

How the results depend on the processing

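Of 17 alternatives, 1 was chosen after seeing the data, and median-of-ratios scaling left the values as they were. The number of clock genes called higher was 1 under each of them. The number called lower, 2, became 1 with no filter on low values, 1 at a mean of at least 5 FPKM, where fewer clock genes are tested, and 0 with no moderation of the variance, and it was 0 to 2 when 1 library was left out and 3 with voom. *Myh9* kept its direction, with a log2 change of -0.12 (adjusted p = 0.0513) once GC content and length trends were removed. The cause of these changes was not tested. With a replicate block, 1 clock gene was called higher and 2 lower, and 8 and 15 of the other clock genes, where the analysis without it called 8 and 19. *Fbxw11* (adjusted p = 0.0620), *Gsk3b* (0.0731) and *Kmt2a* (0.0558) lost their call under the block, as did *Creb1* (0.0910), a gene named here for that reason. The numbers are not known to mark shared animals or days. The other clock genes called were 7 to 11 higher and 13 to 21 lower over all alternatives. *Arntl2*, *Npas2* and *Bhlhe41* had 0 to 14 reads per library and were below the 1 FPKM needed for the test, so neither a difference nor the lack of one is read from them.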
